A study of Mus musculus with 35 samples.

Results

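The genes described here are 8 markers of the formative and primed epiblast: *Otx2*, *Fgf5*, *Pou3f1*, *Sox3*, *Sox4*, *Sox11*, *Grhl2* and *Foxd3*. They were chosen by symbol from a table of 54446 genes, and each of the 8 was found in it once. Their levels were followed in 27 bulk RNA-seq libraries from mouse cells that the labels give as wild-type, in 9 groups of 3. The 15 in vivo libraries came from untreated embryos, male and female together, which the labels give as CD-1 and wild-type and the methods as from CD1 or Pdgfra:H2B-GFP reporter matings. They were dissected as the inner cell mass (ICM) at E3.5 and as the epiblast at each day from E4.5 to E7.5, where E gives the day of embryonic development. Each in vivo library pooled several embryos. At E4.5 epiblast cells were picked by hand as negative for that reporter, which marks the primitive endoderm, and from E5.5 on the visceral endoderm and extra-embryonic tissue were removed by dissection. The 12 in vitro libraries came from epiblast-like cells (EpiLCs; ESCs kept for 48 h with FGF2 and Activin A), 2D epiblast stem cells (EpiSCs; ESCs converted with FGF2 and Activin A), and 3D EpiSCs kept in Matrigel with FGF2, Activin A, the tankyrase inhibitor XAV939 and Noggin, an antagonist of BMPs. These 3D cells had been derived from ESCs (ESC-derived, ESC3D in the plots) or from E5.5 epiblasts (embryo-derived, Embryo3D in the plots). Medium, dimension and, for the embryo-derived cells, origin and cell line therefore changed together between 3D and 2D cultures and cannot be told apart.

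Pluripotent cells of the mouse pass from a naive state in the ICM through a formative state around implantation to a primed state before gastrulation. Otx2 is a homeodomain factor that redirects Oct4 to new enhancers as naive pluripotency is left, Fgf5 is the secreted ligand most used to mark the post-implantation epiblast, and Pou3f1 (Oct6) is a POU-domain factor of the same stage and of early neural cells. Sox3 is a SoxB1 factor closely related to Sox2, Sox4 and Sox11 are SoxC factors known from neural and mesenchymal progenitors, Grhl2 is a grainyhead factor that keeps epithelial genes active, and Foxd3 is a forkhead factor needed for the maintenance of the epiblast.

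On mm10 the 8 genes lie on 7 chromosomes, as protein-coding genes in the annotation. *Otx2* is at chr14:48657677-48673819 (minus strand), *Fgf5* at chr5:98254184-98277030 (plus), *Pou3f1* at chr4:124656807-124660655 (plus) and *Foxd3* at chr4:99656299-99658622 (plus). *Sox3* is at chrX:60891366-60893430 (minus), *Sox4* at chr13:28948919-28953713 (minus), *Sox11* at chr12:27334264-27342574 (minus) and *Grhl2* at chr15:37233036-37363569 (plus). The promoters of genes whose levels changed together or apart in the comparisons are shown as a stretch of 100 bases, 5′ to 3′ on the strand of the gene, from RefSeq (GRCm38.p6, the assembly of mm10). The table held 5 of the 8 genes, *Otx2* with 4 start sites, and *Pou3f1*, *Sox3* and *Grhl2* are named only. Capitals mark a match to a searched motif, and for *Otx2* the stretch is the one that holds its match.
Otx2: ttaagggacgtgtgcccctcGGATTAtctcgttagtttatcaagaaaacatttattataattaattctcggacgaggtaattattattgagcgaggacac
Fgf5: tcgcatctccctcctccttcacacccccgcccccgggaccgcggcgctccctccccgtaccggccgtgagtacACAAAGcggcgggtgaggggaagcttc
Sox4: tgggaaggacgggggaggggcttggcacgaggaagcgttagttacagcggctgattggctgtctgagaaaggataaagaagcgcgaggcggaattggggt
Sox11: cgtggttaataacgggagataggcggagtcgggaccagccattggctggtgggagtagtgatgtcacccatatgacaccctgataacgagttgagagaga
Foxd3: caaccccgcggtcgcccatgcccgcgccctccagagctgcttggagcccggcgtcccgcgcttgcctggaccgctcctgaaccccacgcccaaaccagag
The *Otx2* stretch is chr14:48665241-48665340 (minus), *Fgf5* is chr5:98254084-98254183 (plus), *Sox4* is chr13:28953700-28953799 (minus), *Sox11* is chr12:27342719-27342818 (minus) and *Foxd3* is chr4:99656199-99656298 (plus). Windows from 250 bases before to 50 bases after each start site were searched on both strands for 5 motifs. The *Fgf5* window held ACAAAG, the core of a Sox site, 27 bases before its start, and 18.7% of all 32851 windows held this motif. An *Otx2* window held GGATTA, the reverse complement of the Otx motif TAATCC, 211 bases before its start, as 7.06% of windows did for either strand. The octamer ATGCAAAT of POU factors, in 1.74% of windows, the grainyhead motif AACCGGTT, in 0.146%, and the forkhead motif TGTTTAC, in 3.65%, were not found in the 8 windows of these genes. No motif overlapped another, and a match describes letters and not binding.

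Levels are in TPM, a transcript share that divides by transcript length and so can be set side by side between genes, and that keeps no record of depth. Between 20324 and 26751 genes were above 0 TPM in the in vivo libraries and between 22215 and 24438 in vitro. The in vivo and in vitro libraries were made with different kits, total RNA against poly-A RNA, so differences were tested within each arm only. The RNA at E3.5 and E4.5 was fragmented in another way than from E5.5 on, which cannot be told apart from the step between E4.5 and E5.5. Replicates 1 and 2 of ESC-derived 3D EpiSCs differed by a median of 0.061 log2 units across genes, but replicate 3 by 0.27 from each of them. Differences of the 8 genes in that culture are therefore given without replicate 3 as well. Replicates 2 and 3 of embryo-derived 3D EpiSCs were 0.057 apart and replicates 1 and 2 of 2D EpiSCs 0.065. The remaining pairs of these 2 cultures were 0.13 to 0.16 apart, and those of EpiLCs 0.17 to 0.23. The labels do not say that replicates came from separate cultures, so p-values measure the spread between these samples. In bulk RNA, fewer cells of a type and less RNA per cell cannot be told apart.

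Markers fixed for the labelled tissue and for other cell types were summed in each library. The 8 epiblast markers, which include *Otx2* and *Fgf5*, summed to between 3380 and 3577 TPM at E5.5 and to between 819 and 863 TPM at E7.5. Their sum was between 1363 and 1412 TPM at E3.5 and between 1306 and 1330 TPM at E4.5. In the in vitro cultures this sum was between 3584 and 4391 TPM. The 11 trophectoderm markers summed to between 3068 and 3524 TPM at E3.5 and E4.5 and to between 425 and 456 TPM at E5.5. The keratins *Krt8* and *Krt18* made up most of that sum. In at least 1 library, 10 of the 11 reached 1 TPM at E3.5 and all 11 did at E4.5. *Cdx2* was at a mean of 161 TPM at E3.5 and 23.7 TPM at E4.5. *Elf5* and *Tfap2c* were at 127 and 122 TPM at E4.5. The 12 endoderm markers summed to between 320 and 363 TPM at E4.5, to between 891 and 952 TPM at E5.5 and to between 1446 and 1471 TPM at E7.5. *Apoa1*, *Ttr* and *Afp*, secreted products of the visceral endoderm, were at means of 359, 84.8 and 81.0 TPM at E5.5, although that tissue had been dissected away. The same endoderm sum was between 8.02 and 12.3 TPM in EpiLCs and between 77.9 and 102 TPM in 2D EpiSCs. It was between 32.9 and 34.8 TPM in ESC-derived and between 75.1 and 138 TPM in embryo-derived 3D EpiSCs. Of 6 endoderm markers tested in vitro, 4 were higher in 2D EpiSCs than in EpiLCs, where 15.5% of tested genes were. Between the 3D cultures 3 of them were lower in those from ESCs, where 1.99% of tested genes were, and none was higher. The trophectoderm sum, again mostly keratins, was between 67.4 and 86.5 TPM in EpiLCs, between 622 and 789 TPM in 2D EpiSCs and between 249 and 392 TPM in the 3D EpiSCs. *Cdx2*, *Elf5* and *Hand1* of that list were below 1 TPM in all 12 in vitro libraries. In 2D EpiSCs, 6 of 8 tested genes of the list were higher than in EpiLCs, where 15.5% of tested genes were. Only 1 was lower, where 5.29% were. Besides both keratins, those higher included *Eomes* (log2 difference 3.26), *Gata3* (2.92) and *Ascl2* (1.56). The 12 streak and mesoderm markers summed to a mean of 135 TPM at E5.5 and 418 TPM at E6.5. Of them 10 rose in that step, where 0.738% of tested genes did. *Pdgfra* is in the endoderm list too, and *Eomes* and *Hand1* are in the trophectoderm list too. This sum was between 7.49 and 11.5 TPM in EpiLCs, 178 and 213 TPM in 2D EpiSCs, 60.9 and 78.2 TPM in ESC-derived and 151 and 240 TPM in embryo-derived 3D EpiSCs. Of 6 streak markers tested in vitro, 5 were higher in 2D EpiSCs than in EpiLCs, where 15.5% of tested genes were. Between the 3D cultures 5 were lower in those from ESCs, where 1.99% of tested genes were. Markers of other cell types thus moved with stage and with culture, and their part in the results that follow was not tested.

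**Figure D1:**
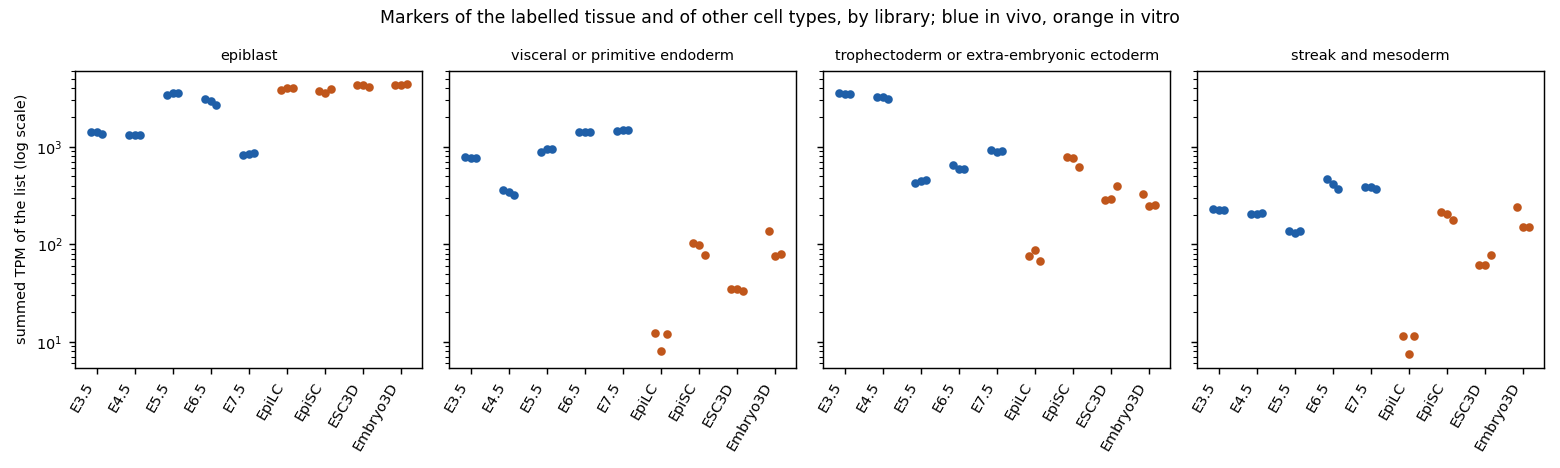
Summed TPM (log scale) of the epiblast, endoderm, trophectoderm and streak marker lists in each library (points), by group, with in vivo groups in blue and in vitro groups in orange. The E7.5 libraries lie lowest for epiblast markers, and the EpiLC libraries lie lowest for the 3 lists of other cell types.

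The 8 genes did not share a course in vivo. *Otx2*, *Fgf5*, *Pou3f1*, *Sox3* and *Sox4* had their highest mean at E5.5, *Sox11* had it at E7.5, and *Grhl2* had it at E4.5. *Foxd3* was highest at E5.5 too, but it was already on at E3.5 and close to 0 at E7.5. In vitro the order differed between genes. *Otx2*, *Fgf5*, *Sox3* and *Sox4* were highest in 2D EpiSCs, *Pou3f1* and *Grhl2* in EpiLCs, and *Foxd3* in the 3D EpiSCs of both origins. *Sox11* had means of 33.5 TPM in both embryo-derived 3D EpiSCs and 2D EpiSCs, whose libraries overlapped.

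**Figure D2:**
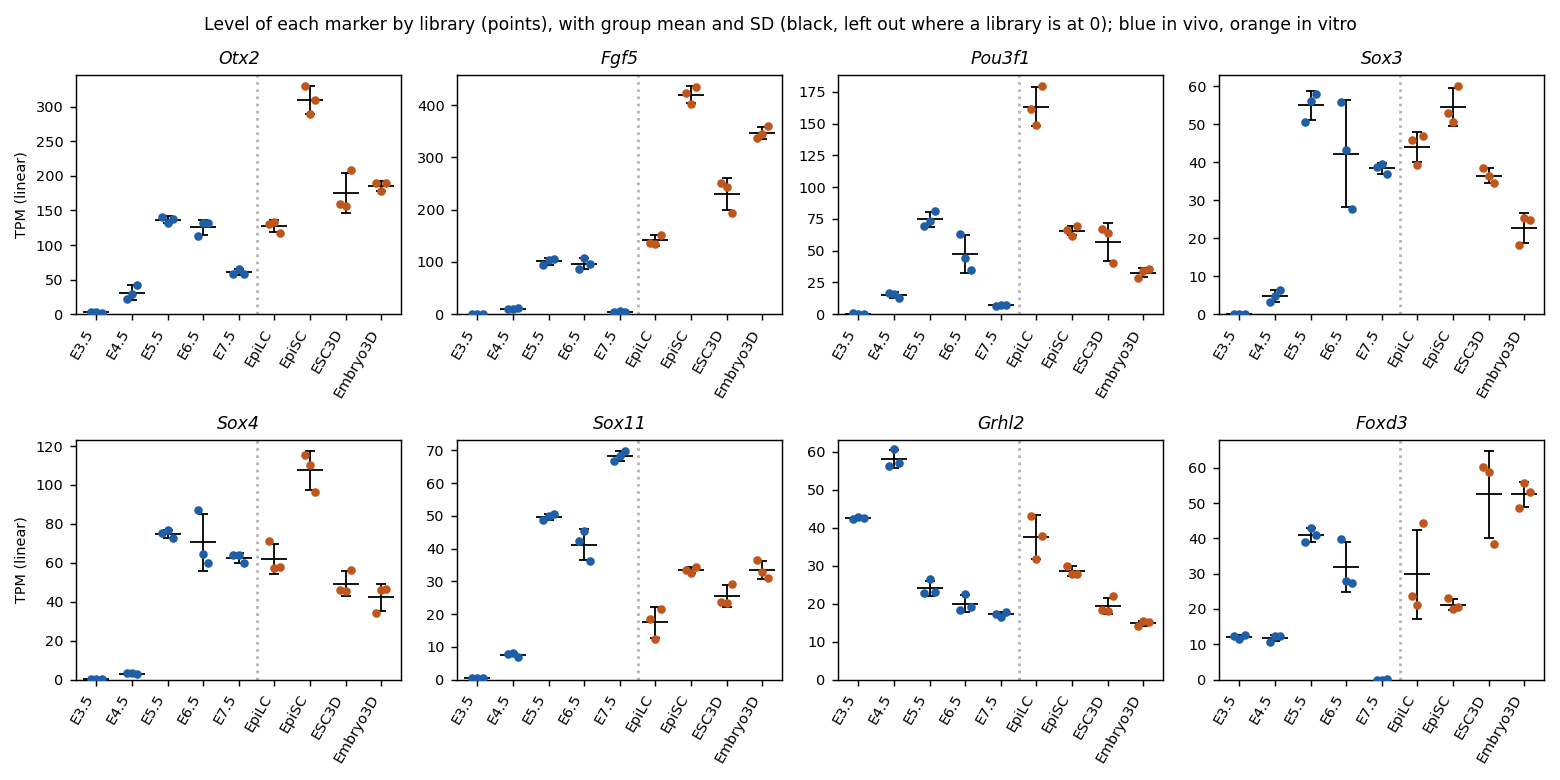
TPM (linear scale from 0) of each gene in every library (points), with the mean and SD of each group of 3 libraries in black, left out where a library is at 0. Blue points are in vivo stages and orange points in vitro cultures. *Grhl2* is highest before E5.5, *Foxd3* is near 0 at E7.5, and *Pou3f1* is highest in EpiLCs.

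The first comparison asked how far the markers had moved between the ICM and the E4.5 epiblast. Differences were fitted with limma on log2(TPM + 1), and a gene counted as called where its log2 difference exceeded 1 in either direction with an adjusted p (Benjamini-Hochberg) under 0.05. Of the 8 genes, 6 rose from E3.5 to E4.5, where 6.20% of the 12332 tested genes did. None fell, where 11.8% of tested genes did. At an unadjusted p below 0.05 none was lower either, and no share of all tested genes is given for that cut. Libraries of both stages did not overlap for 7 of the 8, as for 58.6% of tested genes. *Fgf5* was listed at 0, 0.268 and 0 TPM at E3.5 and was at 9.30, 10.1 and 11.5 TPM at E4.5. This was a rise of 3.38 ± 0.13 (SE) on the log2(TPM + 1) scale (adjusted p = 1.33e-10), which understates changes of low genes. *Otx2* was at 2.66, 3.36 and 2.15 TPM in the ICM and at 22.7, 28.9 and 42.6 TPM at E4.5. Its libraries did not overlap, but those of E4.5 spread widely around a mean of 31.4 ± 10.2 TPM (SD, n = 3). *Pou3f1* rose from 0.760, 0.486 and 0.295 TPM to 17.0, 15.6 and 12.5 TPM, a log2 difference of 3.41 ± 0.19 (adjusted p = 4.32e-09).

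The 3 Sox genes started near 0 and were still low at E4.5. *Sox3* was at 0.147, 0.0483 and 0.0752 TPM at E3.5 and at 3.25, 4.91 and 6.37 TPM at E4.5. *Sox4* rose from at most 0.397 TPM to between 2.77 and 3.27 TPM, and *Sox11* from at most 0.551 TPM to between 7.03 and 8.13 TPM. The 2 genes that were not called were the 2 with the highest levels at E3.5. Trophectoderm markers were present in libraries of both stages (*Cdx2* at means of 161 TPM at E3.5 and 23.7 TPM at E4.5). Their part in these levels was not tested. *Grhl2* was at 42.2, 42.8 and 42.4 TPM at E3.5 and at 56.2, 60.8 and 57.1 TPM at E4.5, a log2 difference of 0.44 (95% interval 0.25 to 0.63) with no overlap of libraries. *Foxd3* was at 12.4, 11.5 and 12.6 TPM at E3.5 and at 10.7, 12.3 and 12.3 TPM at E4.5. Its log2 difference of -0.04 had an interval of -0.31 to 0.23, and it was 0.06 with rescaled libraries.

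The next comparison covered implantation. From E4.5 to E5.5, 7 of the 8 genes rose, where 15.2% of tested genes did, and *Grhl2* fell, where 9.71% did. Libraries did not overlap for any of the 8, as for 64.6% of tested genes. The median log2 difference of the 8 was 2.40 beside 0.16 over all tested genes. *Sox4* had the largest difference of the 8. It was at 3.25, 3.27 and 2.77 TPM at E4.5 and at 75.1, 76.7 and 72.8 TPM at E5.5, which was 24.2-fold higher by the means (log2 difference 4.21 ± 0.14, adjusted p = 1.24e-11). *Sox3* reached 50.6, 56.2 and 58.0 TPM, 11.3-fold above E4.5, and *Sox11* lay between 48.8 and 50.6 TPM, 6.52-fold above it. All 3 Sox genes thus stood near or above 50 TPM in every E5.5 library.

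*Fgf5* was at 94.2, 103 and 106 TPM at E5.5, 9.79-fold above E4.5. *Otx2* was at 141, 132 and 137 TPM, 4.36-fold higher, and *Pou3f1* at 69.6, 73.3 and 81.3 TPM, 4.97-fold higher. *Otx2* was the most abundant of the 8 at E5.5, at ranks 717 to 801 among protein-coding genes. *Foxd3* moved off its earlier level here, to 39.0, 42.8 and 41.0 TPM (3.47-fold, log2 difference 1.72 ± 0.12, adjusted p = 4.68e-08). *Grhl2* went the other way, to 22.8, 26.4 and 23.0 TPM, which was 2.41-fold lower and did not overlap with any E4.5 library (log2 difference -1.24 ± 0.09, adjusted p = 3.99e-08). The trophectoderm sum dropped and the endoderm sum grew over the same step, and the fragmentation of RNA changed with it.

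Between E5.5 and E6.5 none of the 8 genes was called by limma, where 0.738% of tested genes rose and 0.462% fell. At an unadjusted p below 0.05, 4 were lower and none was higher, and no share of all tested genes is given for that cut. Libraries did not overlap for 4 of the 8, as for 31.3% of tested genes. *Pou3f1* was at 63.4, 44.3 and 34.6 TPM at E6.5, below every E5.5 library, with a log2 difference of -0.68 (interval -1.09 to -0.28, adjusted p = 0.0334). It was the only one of the 8 with an adjusted p below 0.05, as 10.9% of tested genes had. The E6.5 libraries also differed among themselves in *Sox3* (55.9, 43.2 and 27.7 TPM) and *Sox4* (87.4, 64.4 and 59.7 TPM), and replicate 1 was the highest in both. *Foxd3* was at 40.0, 28.0 and 27.4 TPM, again with replicate 1 highest. *Fgf5*, at 87.2, 108 and 95.8 TPM, and *Otx2*, at 113, 132 and 132 TPM, were lowest in the same library. *Otx2* differed from E5.5 by -0.13 log2 units (interval -0.51 to 0.26) and *Fgf5* by -0.06 (interval -0.34 to 0.22). *Sox11* was at 42.2, 45.3 and 36.1 TPM and *Grhl2* at 18.3, 22.5 and 19.2 TPM, both below their E5.5 libraries but not past the threshold.

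The last step covered gastrulation. From E6.5 to E7.5, 4 of the 8 fell, where 1.95% of tested genes did, and none rose, where 10.7% did. Libraries of 6 of the 8 did not overlap, as for 62.8% of tested genes. *Foxd3* fell the most and was listed at 0, 0 and 0.118 TPM at E7.5 (log2 difference -4.96 ± 0.12, adjusted p = 3.4e-12). *Fgf5* was at 5.02, 5.80 and 4.15 TPM at E7.5, which was 19.5-fold below E6.5 (log2 difference -4.04 ± 0.13, adjusted p = 3.92e-11). *Pou3f1* was at 6.30, 7.43 and 7.57 TPM, 6.68-fold lower. *Otx2* was at 58.0, 65.5 and 58.0 TPM, 2.08-fold lower, and its log2 difference of -1.04 ± 0.18 was just past the fold threshold (adjusted p = 3.24e-04).

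The Sox genes and *Grhl2* were not called in this step. *Sox3* was at 38.8, 39.6 and 36.8 TPM and *Sox4* at 64.0, 64.0 and 59.7 TPM at E7.5. Their log2 differences from E6.5 were -0.08 (interval -0.55 to 0.39) and -0.15 (interval -0.44 to 0.14), and both turned positive without E6.5 replicate 1, at 0.14 and 0.01. Over all processing alternatives they ranged from -0.41 to 0.14 and from -0.48 to 0.01. *Sox11* was at 66.9, 68.3 and 69.8 TPM, above every E6.5 library, with a log2 difference of 0.72 (interval 0.53 to 0.91, adjusted p = 1.71e-05) that did not reach the fold threshold. It was the only one of the 8 that was higher at an unadjusted p below 0.05, a cut for which no share of all tested genes is given. *Grhl2* was at 17.3, 16.6 and 17.9 TPM, with a log2 difference of -0.19 that ranged from -0.51 to -0.11 over the alternatives. The median log2 difference of all tested genes was 0.32, so genes at a steady TPM lay below most genes of these libraries. With libraries rescaled by median of ratios, *Sox11* was at 0.39 and 742 genes rose and 400 fell, in place of 1325 and 240. The share of risers among called genes was 84.7% before and 65.0% after rescaling. The 10 neural ectoderm markers summed to between 81.4 and 88.7 TPM at E7.5 and between 33.2 and 35.0 TPM at E6.5. Their part in the levels of the Sox genes was not tested.

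**Figure D3:**
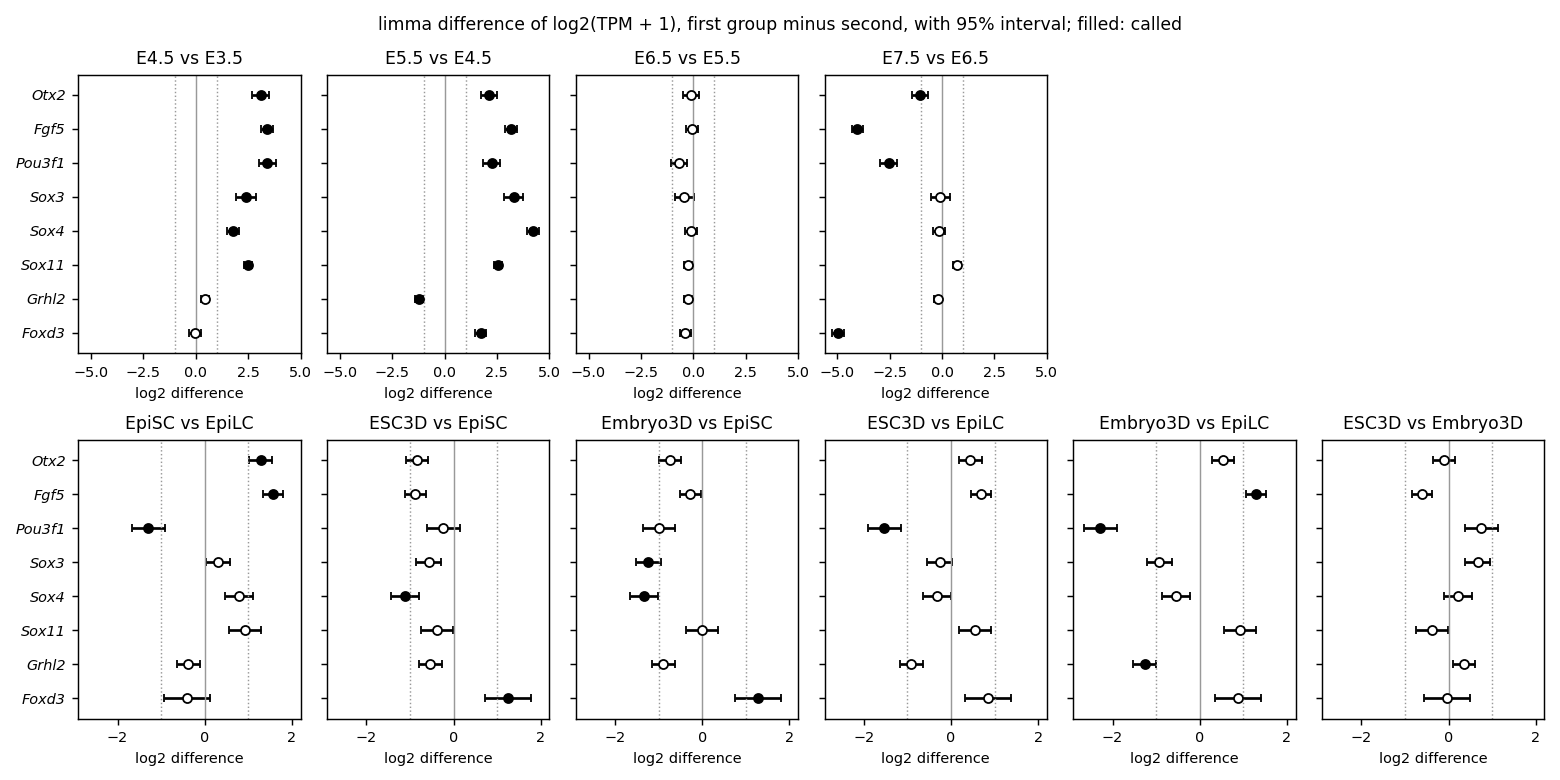
Difference of log2(TPM + 1) between the first and the second group named above each panel, for the 4 in vivo steps (upper row) and the 6 in vitro comparisons (lower row), from limma. Bars are 95% intervals, dotted lines mark a difference of 1 in either direction, and filled points passed the adjusted p and the fold threshold. All 8 points are filled from E4.5 to E5.5, and none from E5.5 to E6.5.

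Among in vitro cultures, 2D EpiSCs and EpiLCs stand for the primed and the formative state. Of the 8 genes, 2 were higher in 2D EpiSCs, where 15.5% of the 11984 tested genes were, and 1 was lower, where 5.29% were. Libraries of 7 of the 8 did not overlap, as for 67.8% of tested genes. *Fgf5* was at 424, 402 and 435 TPM in 2D EpiSCs and at 137, 134 and 153 TPM in EpiLCs, a 2.98-fold difference (log2 difference 1.57 ± 0.11, adjusted p = 3.05e-07). *Otx2* was at 330, 290 and 310 TPM against 130, 134 and 118 TPM, a 2.44-fold difference (log2 difference 1.28 ± 0.12, adjusted p = 2.93e-06). *Pou3f1* had the opposite order. It was at 161, 149 and 180 TPM in EpiLCs and at 66.5, 61.8 and 69.3 TPM in 2D EpiSCs, 2.48-fold lower (log2 difference -1.29 ± 0.17, adjusted p = 5.98e-05). Markers that rose together in the embryo were therefore highest in different cultures.

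The other 5 genes did not reach the fold threshold. *Sox4* was at 116, 110 and 96.5 TPM in 2D EpiSCs and at 71.0, 57.4 and 57.6 TPM in EpiLCs (log2 difference 0.79, interval 0.47 to 1.11). *Sox11* was at 33.4, 32.6 and 34.4 TPM against 18.6, 12.4 and 21.6 TPM. Its log2 difference of 0.93 (interval 0.56 to 1.30) was 1.09 and called without EpiLC replicate 3. *Sox3* differed by 0.30 (interval 0.02 to 0.59), and *Grhl2* by -0.38 (interval -0.63 to -0.12). *Foxd3* was at 23.8, 21.2 and 44.4 TPM in EpiLCs, so replicate 3 was well above the others, and at 23.0, 20.1 and 20.5 TPM in 2D EpiSCs. Rescaling changed the share of higher genes among all called genes from 74.6% to 61.6% in this comparison.

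The 3D EpiSCs were compared with 2D EpiSCs to ask how the markers differ between both kinds of primed culture. In ESC-derived 3D EpiSCs 1 gene was higher, where 0.651% of tested genes were, and 1 was lower, where 9.34% were, and 7 of the 8 did not overlap, as 56.8% of tested genes. *Foxd3* was at 60.3, 58.7 and 38.3 TPM, 2.47-fold above 2D EpiSCs (log2 difference 1.24 ± 0.24, adjusted p = 0.00203), and the difference was 1.45 without replicate 3. *Sox4* was at 46.1, 45.4 and 56.5 TPM, 2.18-fold lower (log2 difference -1.11 ± 0.15, adjusted p = 1.73e-04). With rescaled libraries the *Sox4* difference was -0.89 and no longer called, and without replicate 3 it was -1.21. *Otx2*, at 159, 157 and 208 TPM, and *Fgf5*, at 252, 243 and 194 TPM, were below every 2D EpiSC library, with log2 differences of -0.83 (interval -1.09 to -0.58) and -0.88 (interval -1.11 to -0.64). Replicate 3 was the highest of the 3 libraries in *Otx2* and the lowest in *Fgf5*, and without it the differences were -0.96 and -0.76. *Sox3* was at 38.4, 36.2 and 34.6 TPM (log2 difference -0.57, and -0.53 without replicate 3). *Grhl2* was at 18.3, 18.1 and 21.9 TPM (-0.53, and -0.62 without replicate 3) and *Sox11* at 23.7, 23.3 and 29.3 TPM (-0.39, and -0.49 without replicate 3). *Pou3f1*, at 66.7, 64.2 and 40.0 TPM, overlapped with 2D EpiSCs, and its difference of -0.24 was -0.01 without replicate 3.

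Embryo-derived 3D EpiSCs, compared with the same 2D libraries, had 1 gene higher, where 1.04% of tested genes were, and 2 lower, where 7.74% were, and 7 of the 8 did not overlap, as 58.2% of tested genes. *Foxd3* was at 48.7, 55.8 and 53.1 TPM (log2 difference 1.27 ± 0.24, adjusted p = 0.00208). *Sox4* was at 34.2, 46.0 and 46.6 TPM, 2.54-fold lower (log2 difference -1.34 ± 0.15, adjusted p = 4.49e-05). *Sox3* was at 18.2, 25.3 and 24.7 TPM, 2.40-fold lower (log2 difference -1.24 ± 0.13, adjusted p = 3.52e-05). *Pou3f1* was at 28.5, 34.2 and 35.4 TPM, and its log2 difference of -0.99 (interval -1.37 to -0.62) stood at the threshold. It was called without embryo-derived replicate 2 (-1.03) or 3 (-1.05) and without 2D EpiSC replicate 2 (-1.04). *Otx2*, at 190, 177 and 190 TPM, differed by -0.74, and *Grhl2*, at 14.1, 15.3 and 15.2 TPM, by -0.89, both without overlap. *Fgf5*, at 338, 344 and 360 TPM, differed by -0.27 (interval -0.51 to -0.04, adjusted p = 0.0713). *Sox11* was at 36.6, 32.9 and 31.0 TPM, and its difference of -0.00 had an interval of -0.37 to 0.37.

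Against EpiLCs, *Pou3f1* was the gene lower in 3D EpiSCs of both origins. ESC-derived 3D EpiSCs had no gene higher, where 5.47% of tested genes were, and 1 lower, where 7.28% were, and 7 of the 8 did not overlap, as 50.7% of tested genes. At an unadjusted p below 0.05, 4 of the 8 were higher and 3 lower, and no share of all tested genes is given for that cut. An adjusted p below 0.05 at any fold was seen for 6 of the 8, and for 5470 of 11984 tested genes. *Pou3f1* was 2.87-fold lower there (log2 difference -1.53 ± 0.17, adjusted p = 2.61e-05), and the difference was -1.30 without ESC-derived replicate 3. *Foxd3* differed by 0.84 (interval 0.31 to 1.37), and was called without that library (1.05) or without EpiLC replicate 3 (1.16). *Grhl2* differed by -0.91 (interval -1.17 to -0.65), and was called without EpiLC replicate 2 (-1.02), and it was -0.99 without ESC-derived replicate 3. The other differences, with the value without that library second, were 0.45 and 0.31 in *Otx2*, 0.69 and 0.81 in *Fgf5*, 0.54 and 0.44 in *Sox11*, -0.26 and -0.23 in *Sox3*, and -0.32 and -0.42 in *Sox4*. Embryo-derived 3D EpiSCs had 1 gene higher, where 10.7% of tested genes were, and 2 lower, where 8.39% were, and none of the 8 overlapped, as for 64.1% of tested genes. *Fgf5* was 2.46-fold higher (log2 difference 1.29 ± 0.11, adjusted p = 1.34e-06), *Pou3f1* was 5.00-fold lower (-2.29 ± 0.17, adjusted p = 5.93e-07) and *Grhl2* was 2.52-fold lower (-1.27 ± 0.12, adjusted p = 3.36e-06). Without EpiLC replicate 3, *Sox11* (1.09) and *Foxd3* (1.19) were called higher too. *Sox3*, at -0.93, was called without embryo-derived replicate 2 (-1.02) or EpiLC replicate 2 (-1.01).

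ESC-derived and embryo-derived 3D EpiSCs shared medium and matrix, and no gene of the 8 was called between them by limma, where 1.99% of tested genes were higher and 1.99% lower. Cell line changed with origin, since the methods derive the embryo cells from LifeAct-GFP and CD1 embryos and the others from ESC lines. Line and origin cannot be told apart here. At an unadjusted p below 0.05, ESC-derived cells had 3 of the 8 higher and 2 lower, and no share of all tested genes is given for that cut. *Fgf5* was lower in ESC-derived cells, by -0.60 (interval -0.84 to -0.37, adjusted p = 0.00339), with no overlap between 194 to 252 TPM and 338 to 360 TPM. *Pou3f1* (0.75, adjusted p = 0.0124), *Sox3* (0.67, adjusted p = 0.00564) and *Grhl2* (0.36, adjusted p = 0.0484) lay the other way. An adjusted p below 0.05 at any fold was thus seen for 4 of the 8, and for 21.3% of tested genes. Libraries of these 4 and of *Sox11* (-0.39, interval -0.76 to -0.02) did not overlap, as for 39.2% of tested genes. *Otx2* (-0.10, interval -0.35 to 0.16), *Sox4* (0.22, interval -0.09 to 0.54) and *Foxd3* (-0.03, interval -0.55 to 0.50) overlapped. Without ESC-derived replicate 3 these 3 were at -0.23, 0.12 and 0.18, and *Sox11* was at -0.49. *Fgf5*, *Pou3f1*, *Sox3* and *Grhl2* were then at -0.49, 0.99, 0.71 and 0.28. Among all called genes the share of higher genes was 50.1%, and 65.1% with rescaled libraries.

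**Figure D4:**
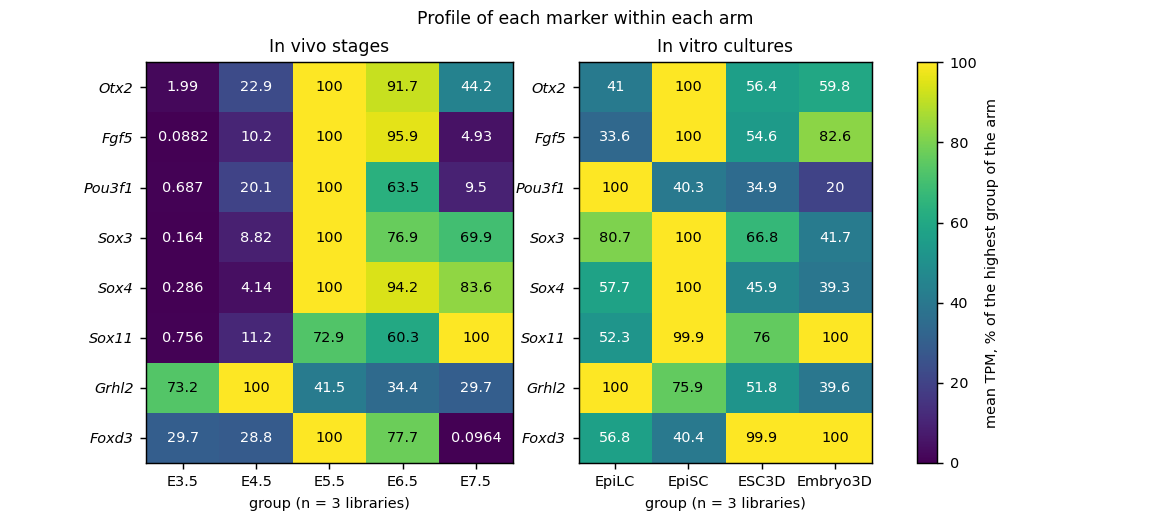
Mean TPM of each gene as a percentage of its highest group, within the 5 in vivo stages (left) and the 4 in vitro cultures (right), 3 libraries per group, with the value printed in each cell. *Foxd3* is at 0.0964% of its E5.5 level at E7.5, and *Fgf5* is at 33.6% of its 2D EpiSC level in EpiLCs.

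The in vitro and in vivo levels are set side by side without a test, since kit and arm cannot be told apart. *Fgf5* had in vivo means of at most 101 TPM and in vitro means of 141 to 420 TPM. *Otx2* was at 127 TPM in EpiLCs, beside 137 TPM at E5.5 and 126 TPM at E6.5, and at 310 TPM in 2D EpiSCs. *Foxd3* was at 21.2 to 52.5 TPM in the 4 cultures, beside 31.8 TPM at E6.5 and 2 of 3 libraries listed at 0 at E7.5. *Sox11* went the other way, with 17.5 to 33.5 TPM in vitro beside 41.2 to 68.3 TPM from E5.5 to E7.5. *Grhl2* was at 14.9 to 37.5 TPM in vitro, beside 17.3 to 24.1 TPM from E5.5 to E7.5 and 42.5 TPM in the ICM.

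Relatives of the markers that share a domain or a receptor were listed with them, and the share of each marker in the summed TPM of its family was computed. *Fgf4*, the FGF of the naive ICM, gave way to *Fgf5*. The share of *Fgf5* in the sum of *Fgf4* and *Fgf5* was 17.3% ± 2.24 at E4.5, 89.1% ± 0.778 at E5.5 and 41.0% ± 1.82 at E7.5 (SD, n = 3). *Fgf4* fell by 1.92 on the log2 scale from E4.5 to E5.5. In EpiLCs the share was 59.1% ± 2.05, with *Fgf4* at a mean of 97.5 TPM, and in 2D EpiSCs it was 98.1% ± 0.318, with *Fgf4* at 8.05 TPM. *Sox2* stayed between means of 32.9 and 52.3 TPM through the 5 stages and was not called in any step, so the share of *Sox3* among *Sox1*, *Sox2* and *Sox3* went from 12.6% ± 3.43 at E4.5 to 59.4% ± 2.25 at E5.5. That share was 42.1% ± 4.18 in ESC-derived and 17.9% ± 2.13 in embryo-derived 3D EpiSCs, where *Sox2* was at 50.7 and 104 TPM.

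The SoxC genes rose as a family, from a summed 8.47 TPM at E3.5 and 24.8 TPM at E4.5 to 183 TPM at E5.5. *Sox12*, the SoxC gene outside the 8, rose by 2.04 on the log2 scale between E4.5 and E5.5 and made up 91.4% of the sum in the ICM and 31.9% at E5.5. In 2D EpiSCs *Sox4* had 59.9% ± 1.54 of the sum, and in embryo-derived 3D EpiSCs *Sox12* had 44.2% ± 1.64 of it and *Sox4* 30.9% ± 2.69. *Grhl2* was the main grainyhead gene in every group. Its share was lowest in the ICM (62.6% ± 1.06), where *Grhl1* was at 22.1 TPM, and in 2D EpiSCs (67.4% ± 1.82), where *Grhl3* was at 12.8 TPM. *Grhl3* was higher by 2.11 on the log2 scale in 2D EpiSCs than in EpiLCs. *Otx2* and *Pou3f1* made up at least 90.8% of their families as group means throughout. *Foxd3* made up at least 95.4% of the sum of *Foxd1* to *Foxd4* in every group but E7.5, where *Foxd4* was at 8.85 TPM after a rise of 3.30 on the log2 scale from E6.5. Reads shared between such relatives can be split by the quantification, which leaves the low values uncertain.

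**Figure D5:**
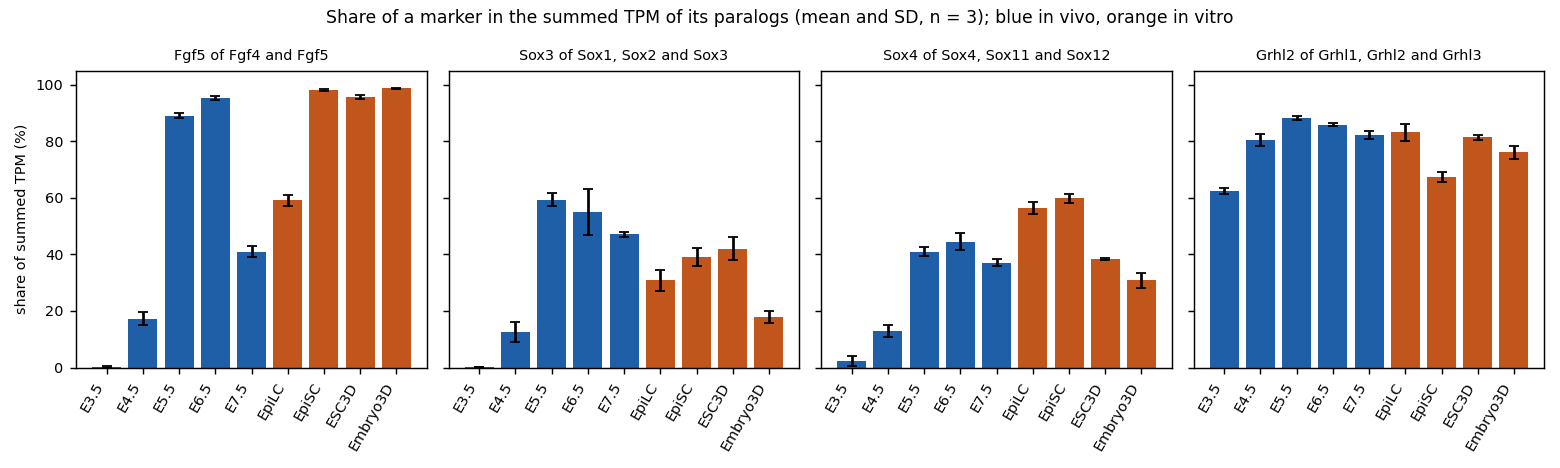
Share of *Fgf5*, *Sox3*, *Sox4* and *Grhl2* in the summed TPM of the relatives named above each panel (bars from 0, mean of 3 libraries; lines, SD), with in vivo groups in blue and in vitro groups in orange. *Fgf5* goes from 17.3% at E4.5 to 89.1% at E5.5, and *Grhl2* stays above 60% in every group.

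Of 30 other post-implantation epiblast genes, 29 were tested. From E3.5 to E4.5, 11 rose and none fell, where 6.20% and 11.8% of tested genes did. From E4.5 to E5.5, 15 rose and 3 fell, where 15.2% and 9.71% did, with a median log2 difference of 1.46 beside 0.16 over all tested genes. The signal *Fgf8* rose by 4.40, the Wnt receptor *Fzd2* by 4.02, *Zic2* by 2.96 and the DNA methyltransferase *Dnmt3b* by 2.32 on the log2 scale in that step. *Dnmt3l*, its naive cofactor, was among those that fell, by -4.04. From E5.5 to E6.5 none of the 29 was called. From E6.5 to E7.5, 11 fell and 1 rose, where 1.95% and 10.7% of tested genes did. *Tdgf1*, the Nodal co-receptor (-5.80), *Utf1* (-4.35), *Nodal* (-3.62) and *Fgf8* (-2.57) fell with *Foxd3*, *Fgf5*, *Pou3f1* and *Otx2*, and *Nkx1-2*, a gene of the caudal epiblast, rose by 5.67. In 2D EpiSCs against EpiLCs, 7 were higher and 5 lower, where 15.5% and 5.29% of tested genes were. *Igfbp3* (3.37), *Cdh2* (2.96) and *Fgf8* (1.92) were higher, and *Dnmt3l* (-6.80), *Dnmt3a* (-2.20) and *Lef1* (-1.58) were lower. In ESC-derived 3D EpiSCs against 2D EpiSCs none was higher and 3 were lower, where 0.651% and 9.34% of tested genes were. In embryo-derived 3D EpiSCs 3 were higher and none lower, where 1.04% and 7.74% of tested genes were.

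Naive pluripotency genes, 14 in all, were listed beside them. From E3.5 to E4.5, 9 fell and none rose, where 11.8% and 6.20% of tested genes did. From E4.5 to E5.5, 11 fell and none rose, where 9.71% and 15.2% did, with a median log2 difference of -2.74. The largest falls of that step were those of *Klf2* (-5.52), *Zfp42* (-4.61) and *Klf5* (-4.24). Of 9 that could be tested in vitro, 5 were lower in 2D EpiSCs than in EpiLCs, with *Zfp42* at -4.86 and *Fgf4* at -3.46, and *Klf5* was higher (1.07). There 5.29% of tested genes were lower and 15.5% higher. Against 2D EpiSCs, 2 of the 9 were higher and 2 lower in 3D EpiSCs of each origin, with list medians of 0.31 in ESC-derived and -0.35 in embryo-derived cells. *Klf2* (2.10 and 2.28, in this order) and *Klf4* (1.92 and 1.95) were higher, at means of 9.49 to 17.0 TPM, and *Klf5* (-1.62 and -1.13) and *Nr0b1* (-1.06 and -1.23) were lower.

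Genes of epithelial junctions and proteases linked to Grhl2 were 16 in number. From E4.5 to E5.5, when *Grhl2* fell, 2 rose and 4 fell, where 15.2% and 9.71% of tested genes did, and their median log2 difference was -0.48 beside 0.16 over all tested genes. The claudins *Cldn4* (-4.21) and *Cldn3* (-3.25) fell, the claudin *Cldn6* (1.30) and the trafficking GTPase *Rab25* (1.74) rose, and *Cdh1*, which encodes E-cadherin, differed by -0.09. In 2D EpiSCs against EpiLCs, 9 of 15 tested genes were higher, where 15.5% of all tested genes were, and none lower, with a median log2 difference of 1.20 beside 0.19 over all tested genes, while *Grhl2* itself differed by -0.38. Those higher included the protease *Tmprss2* (2.53), *Cldn3* (2.07) and *Cldn7* (1.89). In embryo-derived 3D EpiSCs against 2D EpiSCs 7 were lower, where 7.74% of tested genes were, and none higher. The median was -0.82, beside -0.08 over all tested genes and -0.89 for *Grhl2*. In ESC-derived 3D EpiSCs 3 were lower, where 9.34% of tested genes were, and none higher. The median was -0.51, beside -0.21 over all tested genes and -0.53 for *Grhl2*. Against EpiLCs, *Grhl2* differed by -0.91 in ESC-derived and -1.27 in embryo-derived 3D EpiSCs. The list medians there were 0.57 and 0.20, beside 0.01 and 0.11 over all tested genes. *Cldn4* was at means of 55.9 TPM in 2D EpiSCs, 23.0 TPM in ESC-derived and 2.32 TPM in embryo-derived 3D EpiSCs. Keratins *Krt8* and *Krt18*, which are in the trophectoderm list and mark simple epithelia as well, were at 316 and 336 TPM in 2D EpiSCs and at 14.9 and 36.7 TPM in EpiLCs.

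To find the genes with the most similar course, log2(TPM + 1) was centred within each arm and correlated over the 27 libraries. These libraries fall into 9 groups, so the coefficients describe mainly the differences between groups. *Sox3* and *Sox4* were close to each other (r = 0.98), and the gene nearest to *Sox3* was *Cacng7* (r = 0.99). The genes nearest to *Foxd3* were *Pou5f1* (r = 0.93), *Utf1* (r = 0.91) and *Nodal* (r = 0.91), and *Pou5f1* encodes Oct4. Over the 12 in vitro libraries alone *Utf1* had r = 0.28 with *Foxd3*, beside 0.95 over the 15 in vivo libraries. The other genes named here had r between 0.70 and 0.92 with their marker in vitro. Those nearest to *Otx2* were *Igfbp2*, *Acsl4* and *Ldha* (r = 0.97 each). *Fgf5* was closest to *Mycl* (r = 0.94), *Slc5a5* (r = 0.94) and *Zic5* (r = 0.94), and *Pou3f1* to *Myb* (r = 0.96), *Gart* (r = 0.96) and *Pdzd4* (r = 0.95). *Sox4* was closest to *Clip3* (r = 0.99), *Sox11* to *Tceal8* (r = 0.99) and *Grhl2* to *Slc37a1* (r = 0.96). Between the markers, *Fgf5* and *Pou3f1* had r = 0.98 over the 15 in vivo libraries and r = -0.69 over the 12 in vitro libraries. *Sox3* and *Sox11* had r = 0.98 in vivo and r = -0.22 in vitro.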

How the data were processed

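Bulk RNA-seq values of 27 libraries were used (15 in vivo, 12 in vitro, 3 per group), and the 8 other samples of the series (single-cell RNA and bisulfite sequencing) were not analysed here. According to the methods and the submitters' processing notes, the authors removed adapters with cutadapt 2.4, used STAR for alignment (mm10), and obtained gene values from StringTie with GENCODE models. The deposited values are TPM, which sum to the same total in each library, so depth is unknown. Whether quantification used strand is not given in the sources used here.

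Lines of the 12 identifiers that stand on several lines were summed, and empty cells on 56 lines were taken as 0. Biotypes came from GENCODE vM21, which held 54409 of 54446 genes. Protein-coding genes of autosomes and X (21722) with a TPM above 2 in at least 3 libraries of an arm were tested, 12332 in vivo and 11984 in vitro. X was added because *Sox3* is X-linked. Each arm was fitted with limma 3.58.1 in R 4.3.3 on log2(TPM + 1), since the count test of the study needs counts. Calls needed a Benjamini-Hochberg adjusted p below 0.05, over the genes of a comparison, and an absolute log2 fold change above 1. No sequencing batch is named. The scripts were tested on simulated data.

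The 8 members and the lists were chosen with earlier results of these data known. Genes named were the members, the 3 genes most correlated with each, and list genes called in a described comparison. *Gm12688* and other overlapping genes, *Krt8* and *Krt18*, and list genes named for their levels were chosen after their values were seen. Python 3.11.15, pandas 2.3.3 and matplotlib 3.10.9 made the tables and plots. Alternatives were a pseudocount of 0.1, no filter, autosomes only, median-of-ratios rescaling, an intensity trend, compared groups only, all libraries in 1 fit, a replicate block, averaging of close replicates, and leaving out each library.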

Additional observations from a re-analysis of the deposited data

Results flagged for a closer look

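In 4 of the 8 genes the difference between 3D and 2D EpiSCs was not the same for the 2 origins of the 3D cells. Both differences share the 2D EpiSC libraries, so the test is that of ESC-derived against embryo-derived 3D EpiSCs (limma, adjusted p below 0.05). The ESC-derived minus the embryo-derived effect on the log2(TPM + 1) scale was -0.60 in *Fgf5*, 0.75 in *Pou3f1*, 0.67 in *Sox3* and 0.36 in *Grhl2*. Of all tested genes, 21.3% had such an adjusted p in this comparison, and none of the 4 reached the fold threshold. Libraries of both origins did not overlap in these 4 genes, as for 39.2% of tested genes. Without ESC-derived replicate 3 the values were -0.49, 0.99, 0.71 and 0.28, and the adjusted p of *Grhl2* was then 0.0815. Over its alternatives the adjusted p of *Fgf5* was between 0.00111 and 0.0642, that of *Pou3f1* between 1.74e-04 and 0.165, that of *Sox3* between 0.00218 and 0.0740 and that of *Grhl2* between 0.0071 and 0.269.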

How the results depend on the processing

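Of 480 log2 fold changes of the 8 genes with 1 library left out, 459 kept their direction and side of the threshold, 11 became called, 10 changed sign and none lost its call. Of 678 under the other alternatives, 667 kept both, 1 lost its call, 4 became called and 6 changed sign, and the cause of these changes was not tested. Median-of-ratios rescaling, with factors of 0.902 to 1.21, moved 22 of 72 group means by over 1 SD. It turned *Foxd3* from E3.5 to E4.5 to 0.0619, *Fgf5* from E5.5 to E6.5 to 0.0187, *Sox11* in embryo-derived 3D against 2D EpiSCs to 0.0908 (0.0207 with close replicates averaged), and *Otx2* and *Foxd3* between both 3D cultures to 0.0325 and 0.10. It left 0 of the 8 lower in ESC-derived 3D than 2D EpiSCs (*Sox4* at -0.89), and there gave 141 genes higher. From E6.5 to E7.5 it gave 742 genes higher and 400 lower, and between both 3D cultures 151 lower. With autosomes only, *Sox3* was not tested and 1 of the 8 was lower in embryo-derived 3D than 2D EpiSCs. A pseudocount of 0.1 gave 141 genes higher and 131 lower from E5.5 to E6.5, 372 lower from E6.5 to E7.5, 139 higher in ESC-derived 3D than 2D EpiSCs, and 392 higher and 358 lower between both 3D cultures. Averaging close replicates gave 102 lower in the last comparison. Called with an alternative were *Pou3f1* in embryo-derived 3D against 2D EpiSCs (-1.01 with a pseudocount of 0.1, -1.06 averaged) and *Sox3* in embryo-derived 3D EpiSCs against EpiLCs (-1.07 rescaled, -1.01 averaged).

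With each library left out in turn, genes lower in 2D EpiSCs than EpiLCs ranged from 356 (without EpiLC replicate 2) to 636, genes lower in ESC-derived 3D EpiSCs than EpiLCs from 566 (without EpiLC replicate 1) to 991, and genes lower in ESC-derived than embryo-derived 3D EpiSCs from 157 (without ESC-derived replicate 2) to 442 (without replicate 3). Of the 8, 0 to 1 were higher (1 without ESC-derived replicate 3 or EpiLC replicate 3) and 1 to 2 lower (2 without EpiLC replicate 2) in ESC-derived 3D EpiSCs than EpiLCs, and 1 to 3 higher in embryo-derived ones (3 without EpiLC replicate 3). Fold changes that changed sign ranged from -0.0811 to 0.0183 for *Foxd3* from E3.5 to E4.5, from -0.14 to 0.0104 for *Fgf5* and -0.27 to 0.00334 for *Sox4* from E5.5 to E6.5, and from -0.35 to 0.14 for *Sox3* and -0.26 to 0.0115 for *Sox4* from E6.5 to E7.5. For *Sox11* in embryo-derived 3D against 2D EpiSCs they ranged from -0.0651 to 0.0505, and for *Foxd3* between both 3D cultures from -0.14 to 0.18.

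Replicate numbers did not pair the samples: deviations of same-numbered libraries had a mean correlation of -0.0160 in vivo (30 pairs) and -0.0288 in vitro (18 pairs). With the replicate number as a block, counts of called members did not change in any comparison (7 higher and 1 lower from E4.5 to E5.5, for example), and 1876 genes rose in that step in place of 1879. Since the files hold TPM without depth, the counting error behind low levels cannot be given.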

Other observations

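The lincRNA *Gm12688* starts 1316 bases from *Foxd3* on the opposite strand (chr4:99653607-99654983, mm10). It was at 0, 5.56 and 6.67 TPM at E4.5, which overlapped with 5.63, 5.93 and 8.43 TPM at E5.5, although *Foxd3* rose in that step. It was at 0 in all 3 E7.5 libraries, where *Foxd3* was listed at 0, 0 and 0.118 TPM. In vitro it was at 13.0, 17.4 and 18.3 TPM in ESC-derived and at 13.4, 17.2 and 20.9 TPM in embryo-derived 3D EpiSCs, against 8.39, 8.66 and 8.82 TPM in 2D EpiSCs and 9.87, 11.6 and 12.7 TPM in EpiLCs. Its libraries in the 3D cultures thus lay above those of both 2D cultures. *Gm16136*, an antisense gene over the start of *Grhl2*, was at 4.36, 7.74 and 8.12 TPM at E3.5 and at most 2.31 TPM at E5.5. At E4.5, where *Grhl2* was highest, it was already at 2.25, 2.69 and 3.90 TPM. *Gm2164*, antisense to *Pou3f1*, was highest at E5.5, at 3.03, 4.24 and 4.25 TPM. Reads of such partners cannot be told apart where quantification did not use strand.

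Of 12 targets of FGF signalling, all tested, 1 rose and 2 fell from E4.5 to E5.5, when *Fgf5* rose, where 15.2% and 9.71% of tested genes did. Their median log2 difference in that step was 0.23 beside 0.16 over all tested genes. From E6.5 to E7.5, when *Fgf5* fell, 1 rose and 3 fell, where 10.7% and 1.95% of tested genes did, with a median of -0.64 beside 0.32. In embryo-derived 3D EpiSCs against EpiLCs, where *Fgf5* was higher, 3 were higher and 2 lower, where 10.7% and 8.39% of tested genes were, with a median of 0.88 beside 0.11. From E6.5 to E7.5 *Egr1* (-1.66), *Etv1* (-1.14) and *Etv5* (-1.11) fell and *Spred1* (1.24) rose. In 2D EpiSCs against EpiLCs, where *Fgf5* was higher by 1.57, *Egr1* alone was higher (2.16) and *Etv5* alone lower (-1.04). Of all tested genes 15.5% and 5.29% were. The list median there was 0.15 beside 0.19 over all tested genes. In embryo-derived 3D against 2D EpiSCs, where *Fgf5* differed by -0.27, none was called, and the median was 0.68 beside -0.08. In that comparison 1.04% of tested genes were higher and 7.74% lower. ESC-derived 3D EpiSCs had *Fgf5* at -0.88 against 2D EpiSCs, but 2 targets were called higher and none lower. The shares of all tested genes were 0.651% and 9.34%, and the list median was -0.08 beside -0.21. Against EpiLCs these cells (*Fgf5* 0.69) had 1 higher and 1 lower, where 5.47% and 7.28% of tested genes were. Against embryo-derived cells (*Fgf5* -0.60) they had 1 lower and none higher, where 1.99% were each way. All 4 cultures were given FGF2, and its part was not tested.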
